A study of Homo sapiens with 12 samples.

Results

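SPARCLE over-expressing cells were compared with wild-type cells after doxorubicin, over the autosomal genes. HCT116, a human colon carcinoma line, was grown in DMEM with 10% fetal bovine serum. The wild type (WT dox) and the SPARCLE over-expressing cells (OE dox) both received 1 µM doxorubicin for 48 h, with 2 libraries per group, lettered a and b and described as biological replicates. The same 2 kinds of cell in control medium (WT control, OE control) and SPARCLE knockout cells with doxorubicin (KO dox), also 2 libraries each, served as further readings. Of the 16676 genes listed, 16036 lay on autosomes, and 14672 of these passed a filter of at least 1 TPM (reads scaled by gene length and library total) in at least 2 of the 12 libraries of the series. The over-expression construct, its promoter, and whether a line was a clone or a pool are not given in the sources used here.

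SPARCLE is a long non-coding RNA that p53 induces, transcribed from the locus on chromosome 11 that also hosts the microRNAs miR-34b and miR-34c. Doxorubicin poisons topoisomerase II and breaks DNA, which stabilises p53 and switches on genes of cell-cycle arrest and apoptosis. DNA damage can also switch on interferon-stimulated genes, a group that cells normally use against viruses. The study asked how SPARCLE bears on apoptosis and on the cleavage of PARP1 after such damage. RNA levels read the transcripts of these genes, and neither protein cleavage nor cell death.

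The locus is shown first through the microRNAs it hosts. Whether the over-expressed transcript contains them is not known here, because its construct is not given. RefSeq (GRCh38.p14) places MIR34BHG, taken here as the SPARCLE gene, at chr11:111510602-111513888. The mature arms below lie inside this span, with bases 2 to 8 of each (the seed, which pairs with target RNAs) in capitals. The first is at chr11:111512950-111512972, the second at chr11:111512987-111513008 and the third at chr11:111513484-111513505, all on the plus strand.
hsa-miR-34b-5p: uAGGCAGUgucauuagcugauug
hsa-miR-34b-3p: cAAUCACUaacuccacugccau
hsa-miR-34c-3p: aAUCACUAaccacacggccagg
The seeds of these 3 arms differ from one another. The reference used held no mature entry for hsa-miR-34c-5p, so that arm is not shown or compared. The libraries were made from total RNA for whole transcripts, and the mature microRNAs were not measured.

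The promoters of 4 interferon-responsive genes are shown because such genes led the transcripts that were higher in OE dox. Each line gives the 150 bases before a RefSeq transcription start (GRCh38.p14), 5′ to 3′ on the gene's own strand. Capitals mark GAAA, any 2 bases and GAAA again, read on either strand, the core of the interferon-stimulated response element; overlapping matches run together. The table gives a second start for IFI27 and for IFI44, not printed; the 150 bases before them hold 0 matches at chr14:94110665-94110814 and 1 at chr1:78649681-78649830. IFI27 is on the plus strand at chr14:94110586-94110735, IFI44 on the plus strand at chr1:78649639-78649788, CFB on the plus strand at chr6:31945945-31946094 and BST2 on the minus strand at chr19:17405631-17405780.
IFI27: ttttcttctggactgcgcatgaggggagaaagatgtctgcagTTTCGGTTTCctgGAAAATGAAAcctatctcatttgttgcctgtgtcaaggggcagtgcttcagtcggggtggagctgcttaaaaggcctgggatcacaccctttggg
IFI44: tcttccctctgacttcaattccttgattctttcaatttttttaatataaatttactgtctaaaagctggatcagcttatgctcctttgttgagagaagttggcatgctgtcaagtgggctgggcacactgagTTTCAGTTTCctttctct
CFB: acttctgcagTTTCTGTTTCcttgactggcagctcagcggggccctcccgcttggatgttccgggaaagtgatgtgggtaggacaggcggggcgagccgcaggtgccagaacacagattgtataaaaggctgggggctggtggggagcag
BST2: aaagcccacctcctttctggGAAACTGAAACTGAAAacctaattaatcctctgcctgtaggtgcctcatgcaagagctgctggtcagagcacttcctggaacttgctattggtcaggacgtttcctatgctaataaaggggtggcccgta
Over the 250 bases before each start, 308 of the 9702 tested autosomal genes matched to the RefSeq promoter table held these letters before at least 1 of its starts (3.17%). The same search found them at 23 of the 36 matched genes of an interferon response list, and at 14 of the 18 of them with an unadjusted p under 0.05 between OE dox and WT dox. Of the called genes described next, 3 of the 6 matched higher genes and 0 of the 22 matched lower genes held them. Those 3 are IFI27, IFI44 and CFB, all printed above, so the printed promoters do not stand for the higher genes at large. BST2, the other one printed, was not called. The 150 bases before the MIR34BHG start, not printed, held 0 matches. A match is a run of letters and not a measured binding site.

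The comparison found 42 autosomal genes called at an adjusted p under 0.05 (limma on log2(TPM + 1), Benjamini-Hochberg over all 15256 genes tested), or 0.286% of the genes tested. Of these, 13 were higher in OE dox (0.0886%) and 29 were lower (0.198%). Of the 42 genes, 40 were protein coding. Their absolute log2 differences had a median of 1.84 and a minimum of 1.12. At an unadjusted p under 0.05 there were 702 genes, beside 734 expected by chance. The count at an unadjusted p under 0.05 was thus below the expected one, while the called genes had large differences. In whole-culture RNA, fewer cells of a type and less RNA per cell cannot be told apart.

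**Figure D1:**
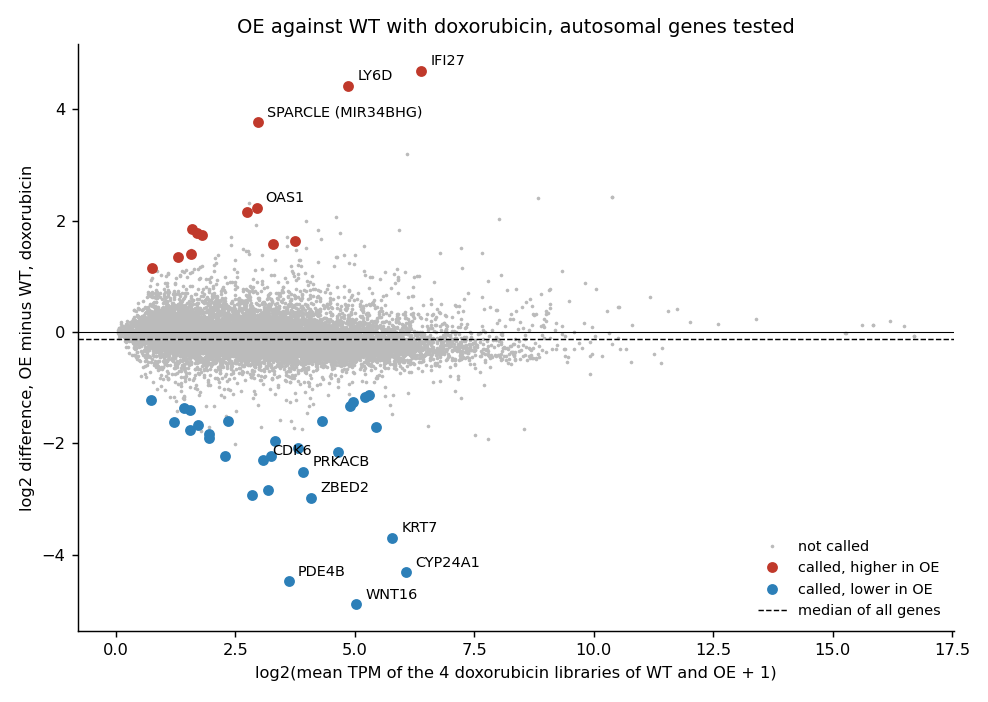
Log2 difference between OE dox and WT dox (vertical axis) against the mean level of the 4 libraries (horizontal axis, log2 of the mean TPM + 1) for the 14672 autosomal genes tested. Red points are the 13 genes called higher, blue points the 29 called lower, grey points the rest, and the dashed line is the median of all genes at -0.12.

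The 4 libraries held between 24892893 and 28893387 reads recovered from the deposited values. The median difference over all autosomal genes was -0.12. Centring each library on its median gene moved it to -0.01, which that scaling does by construction. The origin of the shift was not tested. The same centring called 40 genes higher and 36 lower, so that 52.6% of calls were higher in place of 31.0%. Small nuclear, nucleolar and other small RNAs held between 36.86% and 45.79% of the TPM of a library, most in KO dox b and OE dox b. The libraries of OE dox were further apart than those of WT dox. In OE dox, 1019 genes (6.95%) differed by more than 1 on the log2 scale between a and b, against 175 (1.19%) in WT dox. Without OE dox a, OE dox b, WT dox a or WT dox b in turn, 16, 10, 12 and 19 genes were called. IFI27, LY6D, SPARCLE, WNT16, PDE4B, ZBED2, KRT81, HTR7 and FAM3C were called without each of the 4 in turn, and the other 33 lost the call without at least 1 library.

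The deposited table lists no row under the name SPARCLE, and the row LOC728196, which RefSeq names MIR34BHG, was taken to be it. This row was used to check the OE label. SPARCLE had 0 and 3 reads in WT dox a and b, and 430 and 487 reads in OE dox. In TPM these were 0.0120 and 0.112 in WT dox, and 13.7 and 13.5 in OE dox. The OE libraries stood far above the WT libraries, by 3.78 on the log2(TPM + 1) scale (SE 0.22, limma adjusted p = 1.08e-06). Scaled for depth, the reads were 251-fold higher in OE dox, with an exact 95% counting interval of 85.7 to 1220 because WT dox rested on 3 reads. OE control held 26.5 and 27.3 TPM, so the transcript was high in both media. KO dox held 4 and 1 reads, so this row cannot tell the WT label from the KO label. BTG4, a neighbour of the locus, was not among the genes listed.

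IFI27, a small interferon-induced membrane protein of mitochondria, had the largest rise on the log2(TPM + 1) scale; by ratio of TPM it was behind SPARCLE and LY6D. Its level was 2.85 and 8.91 TPM in WT dox and 140 and 180 TPM in OE dox. Both OE libraries exceeded both WT libraries, by 4.70 on the log2 scale (SE 0.55, limma adjusted p = 0.00152) and a ratio of mean TPM of 27.3. OAS1, an enzyme that senses double-stranded RNA and activates RNase L, read 1.04 and 2.49 TPM in WT dox and 11.3 and 11.9 TPM in OE dox. Its log2 difference was 2.24 (SE 0.29, limma adjusted p = 0.00373). IFI44, an interferon-induced cytoplasmic protein, was at 0.965 and 1.97 TPM in WT dox and at 8.43 and 11.4 TPM in OE dox, a difference of 2.16 (SE 0.30, limma adjusted p = 0.00622). IRF7, the transcription factor that amplifies type I interferon production, was at 3.85 and 7.47 TPM in WT dox and at 22.5 and 15.8 TPM in OE dox, a difference of 1.63 (SE 0.30, limma adjusted p = 0.0427). In all 4 genes WT dox b was above WT dox a, and both OE dox libraries were above both. OAS1 and IFI44 lost the call without 2 of the 4 libraries in turn and IRF7 without 3.

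The interferon response list held 46 tested genes, of which 4 were called higher and 0 lower, beside 0.0886% and 0.198% of all genes. Its median log2 difference was 0.63 against -0.12 for all genes, and 42 of its 46 members were above 0, compared with 32.0% of all genes tested. At an unadjusted p under 0.05 there were 21 members, beside 702 of all 14672 genes. Centring on the median gene gave a list median of 0.71 with 45 members above 0. Leaving out 1 library at a time gave medians between 0.41 and 0.91. In control medium the list median was 0.27 against -0.04 for all genes. The members closest to the threshold were BST2, a tether that holds budding virus at the membrane, and SAMD9, an antiviral restriction factor. BST2 was at 6.08 and 8.41 TPM in WT dox and at 26.2 and 30.02 TPM in OE dox (difference 1.83, SE 0.36, limma adjusted p = 0.053). SAMD9 was at 17.7 and 17.8 TPM in WT dox and at 54.4 and 53.3 TPM in OE dox (difference 1.55, SE 0.30, limma adjusted p = 0.053). OAS3, a second oligoadenylate synthetase, differed by 1.48 (limma adjusted p = 0.0874).

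Other parts of the interferon list differed less. ISG15, a ubiquitin-like modifier, averaged 417.1 and 879.0 TPM (difference 1.10, limma adjusted p = 0.279). IFITM3, a membrane protein that blocks viral entry, averaged 265.6 and 243.4 TPM (difference -0.13, limma adjusted p = 0.994). These 2 were picked after their values were seen, to show the range within the list. Of 17 tested genes of MHC class I antigen presentation, 0 were called, beside 0.286% of all genes, and their median difference was 0.04. HLA-F, a non-classical class I molecule, was at 5.05 and 4.24 TPM in WT dox and at 8.73 and 8.07 TPM in OE dox, with a difference of 0.74 (limma adjusted p = 0.563).

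**Figure D2:**
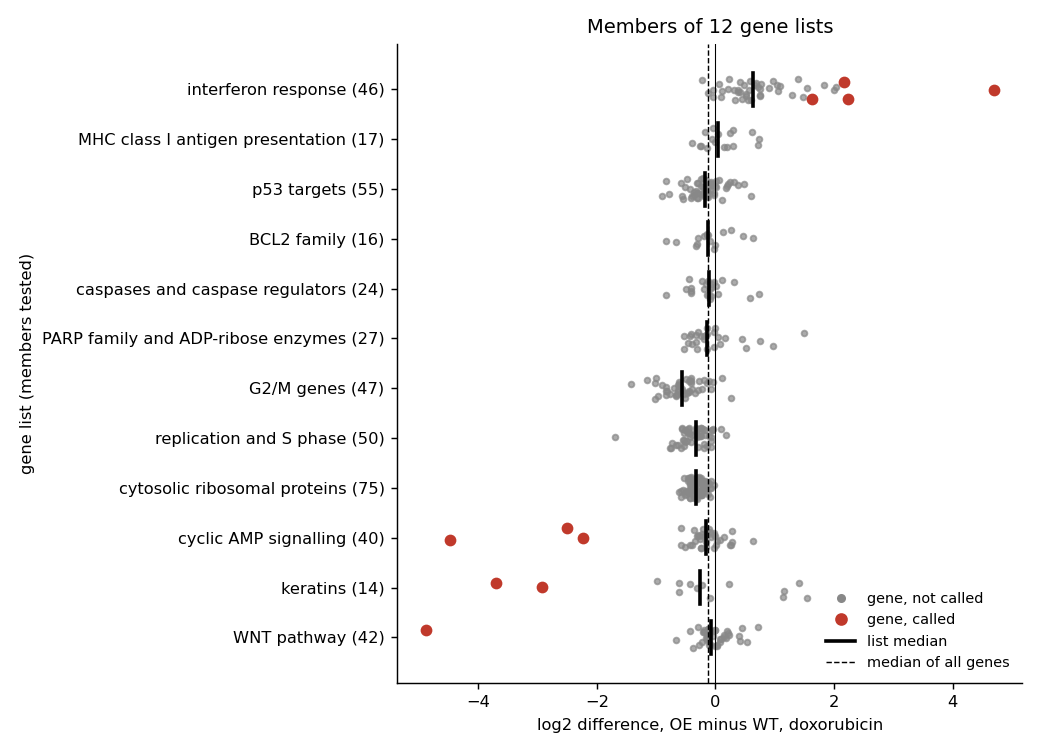
Log2 difference between OE dox and WT dox for the tested members of 12 gene lists (1 point per gene, spread vertically only for legibility; number of members in brackets). Red points are called genes, thick bars list medians and the dashed line the median of all genes; the interferon response list sits to the right with its median at 0.63, and the G2/M list to the left with its median at -0.56.

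Outside the interferon list, LY6D, a lipid-anchored surface protein of the Ly6 family, rose the most after SPARCLE by ratio of mean TPM, 36.7-fold. It was at 2.36 and 0.626 TPM in WT dox and at 30.3 and 79.3 TPM in OE dox, differing by 4.42 (SE 0.45, limma adjusted p = 0.000518). DPP4, a surface peptidase that clips incretin hormones and chemokines, was at 5.21 and 2.87 TPM in WT dox and at 12.7 and 14.6 TPM in OE dox (difference 1.57, SE 0.28, limma adjusted p = 0.0284). Each group's libraries lay clear of the other's in both genes.

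Another 6 genes rose from a mean below 5 TPM in both groups. NCF4, a cytosolic subunit of the phagocyte NADPH oxidase, was at 0.761 and 0.457 TPM in WT dox and at 4.55 and 4.17 TPM in OE dox. CFB, complement factor B, was at 0.318 and 0.273 TPM in WT dox and at 3.21 and 4.19 TPM in OE dox. AL645922.1 overlaps CFB on the same strand and may share its reads, so the pair is uncertain as 2 separate signals. LAMA1, a laminin chain of basement membranes, was at 0.0566 and 0.0435 TPM in WT dox and at 1.56 and 1.13 TPM in OE dox, on 26 and 867 reads in all. LRP1B, an endocytic receptor of the low-density lipoprotein receptor family, was at 0.543 and 0.239 TPM and at 2.39 and 2.65 TPM. APOL6, an interferon-inducible member of the apolipoprotein L family, was at 0.511 and 0.735 TPM and at 4.15 and 2.52 TPM. The log2 differences of the 6 genes ran from 1.15 for LAMA1 to 1.85 for CFB, and each of them lost the call without at least 3 of the 4 libraries in turn.

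Some genes stood higher in OE dox without being called. HKDC1, a hexokinase-like protein, differed by 1.48 and SYTL2, a vesicle-trafficking protein, by 1.79 (limma adjusted p = 0.0513 and 0.0519). TIMP3, SMIM22, PSCA and TSPAN1 had adjusted p-values of 0.0744 to 0.0786. TSPAN1, a tetraspanin of epithelial cells, was at 15.9 and 17.1 TPM in WT dox and at 39.1 and 41.1 TPM in OE dox.

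Among the lower genes, 3 belong to cyclic AMP signalling. PDE4B, a phosphodiesterase that degrades cyclic AMP, was nearly absent from the OE cells. It was at 23.03 and 22.1 TPM in WT dox (3170 and 3399 reads) and at 0.0690 and 0.0436 TPM in OE dox (11 and 8 reads). The log2 difference was -4.48 (SE 0.21, limma adjusted p = 2.05e-07), the smallest adjusted p of the comparison, and WT dox held 401-fold more by mean TPM. PRKACB, a catalytic subunit of the cyclic AMP-dependent protein kinase, was at 30.9 and 18.9 TPM in WT dox and at 3.87 and 3.04 TPM in OE dox (difference -2.51, SE 0.34, limma adjusted p = 0.00574). HTR7, a serotonin receptor that couples to adenylyl cyclase, was at 17.6 and 11.9 TPM in WT dox and at 2.67 and 1.98 TPM in OE dox (difference -2.23, SE 0.26, limma adjusted p = 0.00152). The list of 40 tested genes had a median of -0.16, beside -0.12 for all genes. No other member was called, and 0.286% of all genes were. PRKAR1A, the main regulatory subunit of the kinase, was at 125 and 115 TPM in WT dox and at 100.1 and 63.5 TPM in OE dox (difference -0.59, limma adjusted p = 0.945).

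WNT16, a secreted WNT ligand, showed the largest fall on the log2(TPM + 1) scale, though not by ratio of TPM, where PDE4B and ZNF350 were ahead. It was at 83.5 and 40.7 TPM in WT dox and at 0.795 and 1.25 TPM in OE dox, a difference of -4.89 (SE 0.35, limma adjusted p = 1.33e-05) and a ratio of mean TPM of 60.9. FAM3C, a secreted protein encoded next to WNT16, was at 69.4 and 61.8 TPM in WT dox and at 21.4 and 17.7 TPM in OE dox (difference -1.70, SE 0.19, limma adjusted p = 0.00152). WNT16 was the only one called of 42 tested WNT pathway genes, beside 0.286% of all genes. The list median was -0.07, against -0.12 for all genes. WNT3A, another ligand, was at 2.45 and 2.15 TPM in WT dox and at 1.33 and 0.858 TPM in OE dox (limma adjusted p = 0.868).

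Among filament genes, 2 keratins and 1 keratin-associated protein were called lower. KRT7, a keratin of simple epithelia, was at 49.5 and 153 TPM in WT dox and at 9.66 and 3.36 TPM in OE dox (difference -3.70, SE 0.64, limma adjusted p = 0.0273). KRT81, a hair keratin encoded close to KRT7, was at 13.6 and 10.0 TPM in WT dox and at 1.07 and 0.337 TPM in OE dox (difference -2.93, SE 0.32, limma adjusted p = 0.00108). KRTAP3-1, a hair keratin-associated protein encoded on another chromosome, was at 11.8 and 18.1 TPM in WT dox and at 1.91 and 0.646 TPM in OE dox (difference -2.84, SE 0.49, limma adjusted p = 0.0273). OE dox a was above OE dox b in all 3 genes, and both lay below WT dox. Of the 14 tested keratins, 2 were called and 5 were above 0, beside 0.286% and 32% of all genes. KRT17, a keratin of stressed and basal epithelium, stood at 2.71 and 2.69 TPM in WT dox and at 10.8 and 7.18 TPM in OE dox, and was not called (difference 1.41, limma adjusted p = 0.145). KRT7 and KRTAP3-1 lost the call without each of the 4 libraries in turn.

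The other lower genes came from several functions. CYP24A1, the enzyme that inactivates the vitamin D hormone, was at 123 and 130.003 TPM in WT dox and at 11.8 and 2.21 TPM in OE dox (difference -4.31, SE 0.72, limma adjusted p = 0.0237). ZBED2, a zinc-finger transcription factor, was at 28.2 and 29.9 TPM in WT dox and at 3.73 and 2.09 TPM in OE dox (difference -2.97, SE 0.34, limma adjusted p = 0.00152). CDK6, a cyclin D-dependent kinase that drives entry into the cell cycle, was at 13.1 and 12.7 TPM in WT dox and at 2.69 and 1.16 TPM in OE dox (difference -2.30, SE 0.29, limma adjusted p = 0.00358). CDK6 was the only one called of 23 tested genes described as miR-34 targets, beside 0.286% of all genes. The median of these targets was -0.28, against -0.12 for all genes. NT5E, the surface enzyme that makes adenosine from AMP, was at 43.7 and 36.0 TPM in WT dox and at 9.05 and 7.40 TPM in OE dox (difference -2.15, SE 0.33, limma adjusted p = 0.0125). SLC2A3, a glucose transporter, was at 5.30 and 8.79 TPM in WT dox and at 0.318 and 1.13 TPM in OE dox (difference -2.23, SE 0.39, limma adjusted p = 0.0273). SLC2A3 was the only one called of 39 glycolysis and hypoxia genes, beside the same 0.286% of all genes. In none of these 5 genes did a library of OE dox reach the lower library of WT dox.

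NECTIN3, an adhesion molecule of cell junctions, was at 29.8 and 13.9 TPM in WT dox and at 4.41 and 3.73 TPM in OE dox (difference -2.08, SE 0.36, limma adjusted p = 0.0273). MKX, a homeobox factor of tendon, was at 11.2 and 18.98 TPM and at 3.64 and 2.47 TPM (difference -1.96, SE 0.33, limma adjusted p = 0.0237). ARMC4, a protein that docks dynein arms in motile cilia, was at 4.21 and 6.06 TPM and at 0.620 and 0.613 TPM (difference -1.91, SE 0.29, limma adjusted p = 0.0125). IL32, a cytokine, was the only one of 37 NF-kB and inflammatory genes called, beside 0.286% of all genes. It was at 1.65 and 3.44 TPM in WT dox and at 0.120 and 0.132 TPM in OE dox. ZNF350, a KRAB zinc-finger repressor, had 114 and 88 reads in WT dox and 0 and 0 in OE dox. Against 3 reads over the OE dox libraries together, the limit that a count of 0 allows, WT dox was at least 81.9-fold higher after scaling for depth. ENKD1, PODXL2, GJC1, RHOBTB3, ZNF608, NAV3, ANXA3, MPP7, OSBPL8, PAPSS1 and the non-coding AC012625.1 were also called lower, by between -1.83 and -1.12. These 11 genes, with FAM3C, ZNF350 and AL645922.1, were named after their values were seen.

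**Figure D3:**
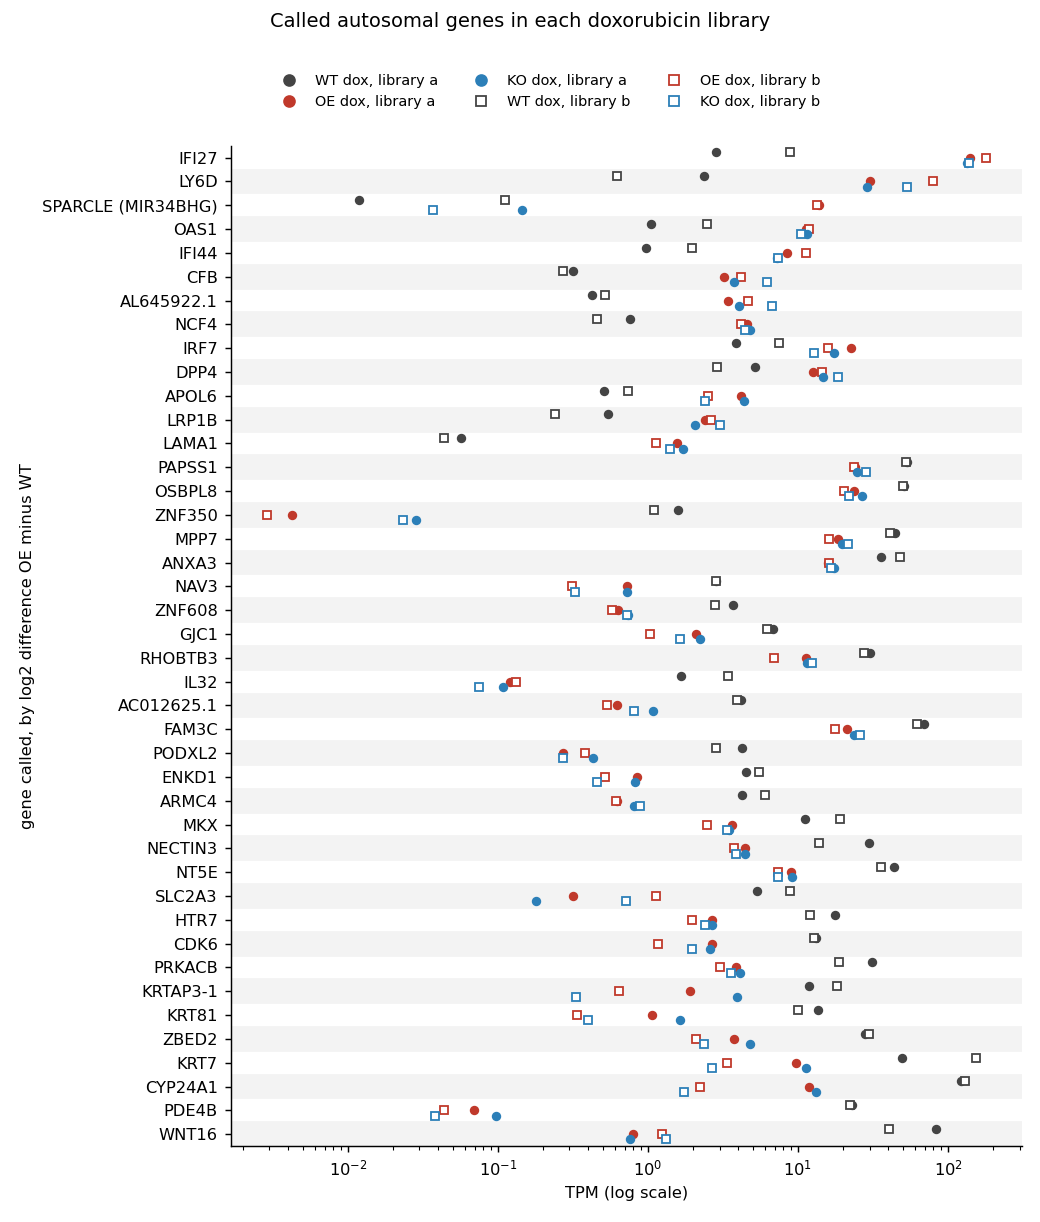
TPM (log axis) of the 42 called genes in the 6 doxorubicin libraries; filled circles are library a, open squares library b, and genes run from the largest rise to the largest fall. Dark points (WT) lie apart from red points (OE) in every row. Blue points (KO) lie beside the dark ones in the SPARCLE row, and apart from them on the side of the red ones in the other 41 rows. Libraries with 0 reads are drawn at the small value that the deposited table gives them.

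Of 55 tested p53 targets, 0 were called, where 0.286% of all genes were, so that a list of this size would hold fewer than 1 call at the background share. Of its members 3 had an unadjusted p under 0.05, and the list median was -0.18, against -0.12 for all genes. CDKN1A, the p21 inhibitor of cyclin-dependent kinases, was at 741 and 761 TPM in WT dox and at 1038 and 544 TPM in OE dox (difference 0.00, SE 0.35, limma adjusted p = 0.9996). MDM2, the ligase that degrades p53, differed by -0.30 (SE 0.26) and TP53I3, a p53-induced oxidoreductase, by -0.03 (SE 0.64). TP53I3 was at 208 and 297 TPM in WT dox and at 420.1 and 142 TPM in OE dox. In CDKN1A and TP53I3 the libraries of OE dox lay on both sides of those of WT dox. Relative to all genes the list median was -0.32 without OE dox a and 0.21 without OE dox b, so its sign rested on the library.

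Among apoptosis genes, 0 of 16 in the BCL2 family and 0 of 24 caspases and regulators were called, which is also what the background share of 0.286% gives. BBC3, the pro-death protein PUMA, was at 15.8 and 21.6 TPM in WT dox and at 29.4 and 9.99 TPM in OE dox. PMAIP1, the pro-death protein NOXA, was at 177 and 172 TPM in WT dox and at 153 and 62.4 TPM in OE dox (difference -0.83, SE 0.50, limma adjusted p = 0.993). BAX, the pore-forming effector, differed by -0.20 and FAS, the death receptor, by -0.15, with SEs of 0.27 and 0.48. The libraries of the 2 groups overlapped in 3 of these 4 genes, PMAIP1 being the exception. The share of all genes with such an overlap was not counted, so this is no result about apoptosis genes.

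PARP1, the enzyme whose cleavage the study addressed, was at 34.6 and 27.8 TPM in WT dox and at 24.1 and 18.7 TPM in OE dox. Its libraries did not overlap, but the difference of -0.53 (SE 0.22) was not called (limma adjusted p = 0.944). Of 27 tested genes of the PARP family and ADP-ribose metabolism, 0 were called, beside 0.286% of all genes, and the median was -0.15. The largest value was that of PARP10, a mono-ADP-ribosyltransferase that interferon induces, at 1.36 and 2.98 TPM in WT dox and at 12.7 and 4.35 TPM in OE dox (difference 1.49, SE 0.50, limma adjusted p = 0.605). PARP9, also interferon-inducible, was at 5.23 and 8.64 TPM and at 14.6 and 13.8 TPM (limma adjusted p = 0.619).

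Proliferation and ribosome lists had medians below that of all genes, with 0 genes called, beside 0.286% of all genes. The 47 tested genes of G2 and mitosis had a median of -0.56, with 2 above 0 and 18 at an unadjusted p under 0.05. Of all 14672 genes, 702 had such a p. KIF18A, a mitotic kinesin, was closest to the threshold, at 6.85 and 7.69 TPM in WT dox and at 2.16 and 2.01 TPM in OE dox (difference -1.42, SE 0.29, limma adjusted p = 0.0684). NUSAP1, a spindle protein, was at 7.04 and 4.56 TPM and at 2.86 and 1.84 TPM. Centred on the median gene, the list median was -0.46 and 6 members were above 0. In control medium the median was -0.79. NUSAP1 there was at 63.9 and 63.1 TPM in WT control and at 36.8 and 35.6 TPM in OE control. The 50 genes of replication had a median of -0.32, and 7 had an unadjusted p under 0.05. The 75 cytosolic ribosomal protein genes had a median of -0.32 with 0 above 0, or 8 above 0 after centring on the median gene. Relative to all genes, the ribosomal median was 0.06 without OE dox a and -0.45 without OE dox b.

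Cell identity markers, lists too short to hold a call at the background share of 0.286%, had 0 calls: 0 of 17 epithelial, 0 of 4 intestinal, 0 of 9 mesenchymal, 0 of 4 leukocyte and 0 of 3 kidney and neural genes tested. Only 4 of the 24 intestinal markers passed the filter, and 17 of the 18 epithelial ones. The leukocyte markers tested had a median difference of 0.32 with 4 of 4 above 0, and the mesenchymal ones a median of -0.32 with 1 of 9 above 0, beside 32.0% of all genes; their part in the results was not tested. EPCAM, the defining surface protein of colon epithelium, was at 158 and 128 TPM in WT dox and at 145 and 90.2 TPM in OE dox. VIM, the mesenchymal filament, was at 1.20 and 3.95 TPM in WT dox and at 0.492 and 0.0113 TPM in OE dox (difference -1.42, limma adjusted p = 0.418).

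Control medium gave a reading of the same 2 kinds of cell in libraries that did not enter the doxorubicin differences. All 12 libraries shared the estimate of each gene's spread, so the p-values of the 2 media are not independent. There, 13 autosomal genes were called (0.0886%), with 4 higher (0.0273%) and 9 lower (0.0613%). Of the 42 genes called with doxorubicin, 42 differed in the same direction in control medium, compared with 64.4% of all genes tested, and 32 had an unadjusted p under 0.05 there (76.2%, against 4.97% of all genes). In all, 9 were called in both media. SPARCLE, WNT16, PDE4B, PRKACB, HTR7, FAM3C, PODXL2, AC012625.1 and ZNF350 made up these 9. PRKACB was at 26.5 and 18.9 TPM in WT control and at 2.20 and 1.26 TPM in OE control, a difference of -3.12 beside -2.51 with doxorubicin. HTR7 was at 14.9 and 16.5 TPM in WT control and at 2.80 and 3.01 TPM in OE control.

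Some called genes had low levels in control medium. KRT81 was at 0.208 and 0.668 TPM in WT control and at 0.244 and 0.195 TPM in OE control, with an adjusted p of 1 by limma. ZBED2 was at 1.35 and 3.06 TPM in WT control and at 1.97 and 1.48 TPM in OE control, so the groups overlapped. OAS1 was at 0.0970 and 0.0968 TPM in WT control and at 0.394 and 0.909 TPM in OE control. IFI27 was at 1.57 and 1.96 TPM in WT control and at 5.21 and 24.7 TPM in OE control (difference 2.20, SE 0.55, limma adjusted p = 0.303).

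Whether a difference depended on the medium was tested as an interaction, which called 1 gene (0.00682%). PDE4B was at 1.40 and 1.91 TPM in WT control and at 0.0281 and 0.00996 TPM in OE control, a difference of -1.38. WT libraries were higher with doxorubicin than in control medium, and OE libraries were low in both. The interaction was -3.10 (SE 0.29, limma adjusted p = 0.00131). On a scale of log2(TPM + 0.1) it was -3.31 (SE 0.64, limma adjusted p = 0.88). With voom on recovered reads it was -2.19 (SE 0.75) with a limma adjusted p of 1. Both alternatives had a larger SE, and why the call was lost was not tested. Adding 1 to TPM compresses differences between low levels in either medium. For ZBED2, KRT81 and KRT7 the interactions were -2.79, -2.71 and -2.77 and were not called.

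**Figure D4:**
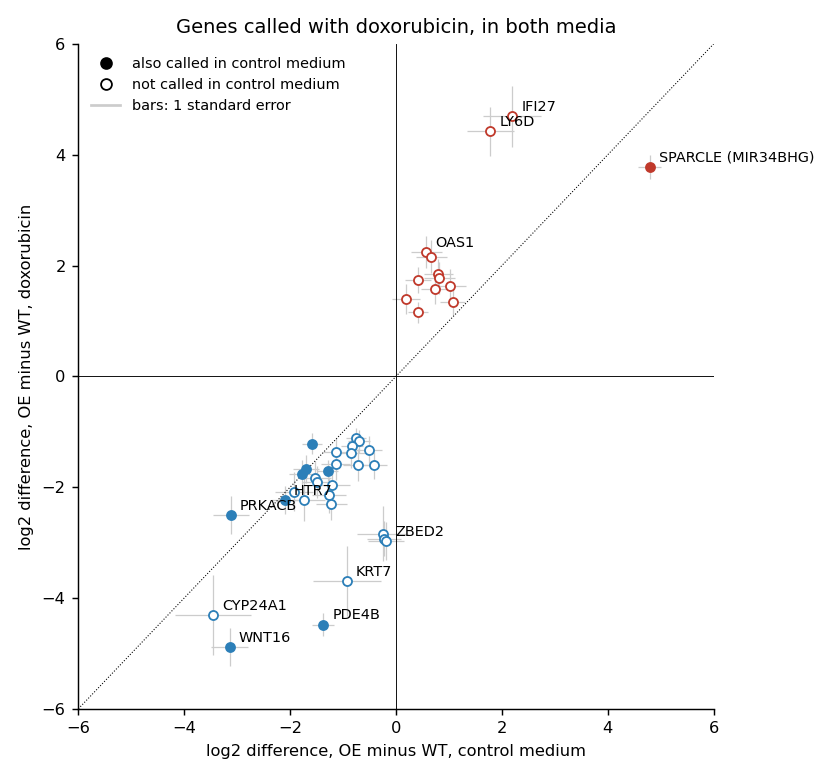
Log2 difference between OE and WT in control medium (horizontal axis) and with doxorubicin (vertical axis) for the 42 genes called with doxorubicin; bars are 1 standard error and filled points are the 9 genes also called in control medium. All 42 points lie in the upper right or lower left quadrant, and the dotted line marks equal differences.

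The knockout cells were the other manipulated line, and their levels are given beside those of the over-expressing cells. Against KO dox, OE dox differed by 1 called gene (0.00682%), which was SPARCLE (difference 3.75, SE 0.22, limma adjusted p = 3.69e-06). At an unadjusted p under 0.05 there were 13 genes, beside 734 expected by chance. Same-lettered libraries of KO dox and OE dox deviated together (correlation 0.811), and the fit did not pair them. Its p-values and intervals here therefore take in spread that the 2 groups shared. For the other 41 genes called between OE dox and WT dox, the median absolute difference between OE dox and KO dox was 0.14, with a median 95% interval of 0.62 either way. The largest was 0.40 and the smallest unadjusted p was 0.109. PDE4B was at 0.0968 and 0.0379 TPM in KO dox, beside 0.0690 and 0.0436 TPM in OE dox. IFI27 was at 133 and 138 TPM in KO dox, and WNT16 at 0.758 and 1.32 TPM. In all 41 genes both KO dox libraries lay apart from both WT dox libraries, on the same side as OE dox. These differences from WT dox were thus not particular to the over-expressing cells. The 41 genes were chosen by their difference from these same WT dox libraries, so the count describes them and is not a test. The share of all genes tested whose KO dox and WT dox libraries lay apart was not counted. The comparison of OE dox with KO dox shares the OE dox libraries with the main one.

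Over the autosomal genes tested, the gaps between libraries a and b correlated at 0.811 between KO dox and OE dox. Between WT dox and OE dox the correlation was 0.158. TP53I3 was at 484 and 85.9 TPM in KO dox a and b, beside 420.1 and 142 TPM in OE dox. KRTAP3-1 was at 3.93 and 0.329 TPM, beside 1.91 and 0.646 TPM. These 2 genes were picked as examples after their values were seen.

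Position along the genome was examined because some called genes are neighbours. Of the 42 called genes, 13 lay within 1 Mb of another, in 6 groups: MKX, ARMC4 and MPP7 on chromosome 10, KRT7 with KRT81 and OSBPL8 with NAV3 on chromosome 12, NECTIN3 with ZBED2 on chromosome 3, WNT16 with FAM3C on chromosome 7, and CFB with AL645922.1 on chromosome 6. How often genes drawn from all those tested would lie this close was not counted, so the 13 are a description only. CFB and AL645922.1 overlap and may share reads, as stated above. By chromosome, the median difference ran from -0.16 on chromosome 12 to -0.03 on chromosome 22.

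Medians over 15 neighbouring genes were then taken along each chromosome, giving 14364 overlapping windows with a median of -0.12 and a 1st percentile of -0.34. The lowest window, at chr12:75483454-78213008, had a median of -0.90, with 15 of 15 genes below 0. It reached -0.65 in control medium, with 14 of 15 below 0, and -0.15 between OE dox and KO dox. KRR1, named like the other genes of the windows after its values were seen, is a factor of small ribosomal subunit assembly. It was at 52.2 and 43.5 TPM in WT dox and at 31.8 and 19.9 TPM in OE dox. OSBPL8, a lipid-transfer protein of the endoplasmic reticulum, was at 50.5 and 49.97 TPM and at 23.5 and 20.1 TPM (difference -1.17, SE 0.21, limma adjusted p = 0.0292). NAV3, a microtubule-binding protein, was at 2.86 and 2.86 TPM and at 0.728 and 0.312 TPM (difference -1.36, SE 0.24, limma adjusted p = 0.0325). E2F7, a repressor of cell-cycle genes in the same window, overlapped between groups at 6.76 and 8.82 TPM and at 10.5 and 1.66 TPM.

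The second lowest window, at chr1:77979175-84997113, had a median of -0.51 with doxorubicin and -0.63 in control medium, and -0.13 between OE dox and KO dox. It holds PRKACB together with GNG5, a G protein gamma subunit, at 44.6 and 46.5 TPM in WT dox and at 25.7 and 27.2 TPM in OE dox (difference -0.76, limma adjusted p = 0.568). SAMD13, in the same window, was at 2.57 and 1.91 TPM and at 0.735 and 0.636 TPM (difference -0.94, limma adjusted p = 0.222). IFI44 also lies in that window and rose. The next lowest windows had medians of -0.43, -0.41 and -0.40. The highest window, over the S100A and LCE genes of chromosome 1, had a median of 0.47, with 6 of 15 genes below 0. Its median was 0.18 in control medium and -0.06 between OE dox and KO dox. S100A10, in this window, differed by -1.48 and was not called. The windows were ranked on the same differences, so these values describe the stretches and are not a test. DNA copy number was not measured, and its part in the 2 low stretches was not tested.

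**Figure D5:**
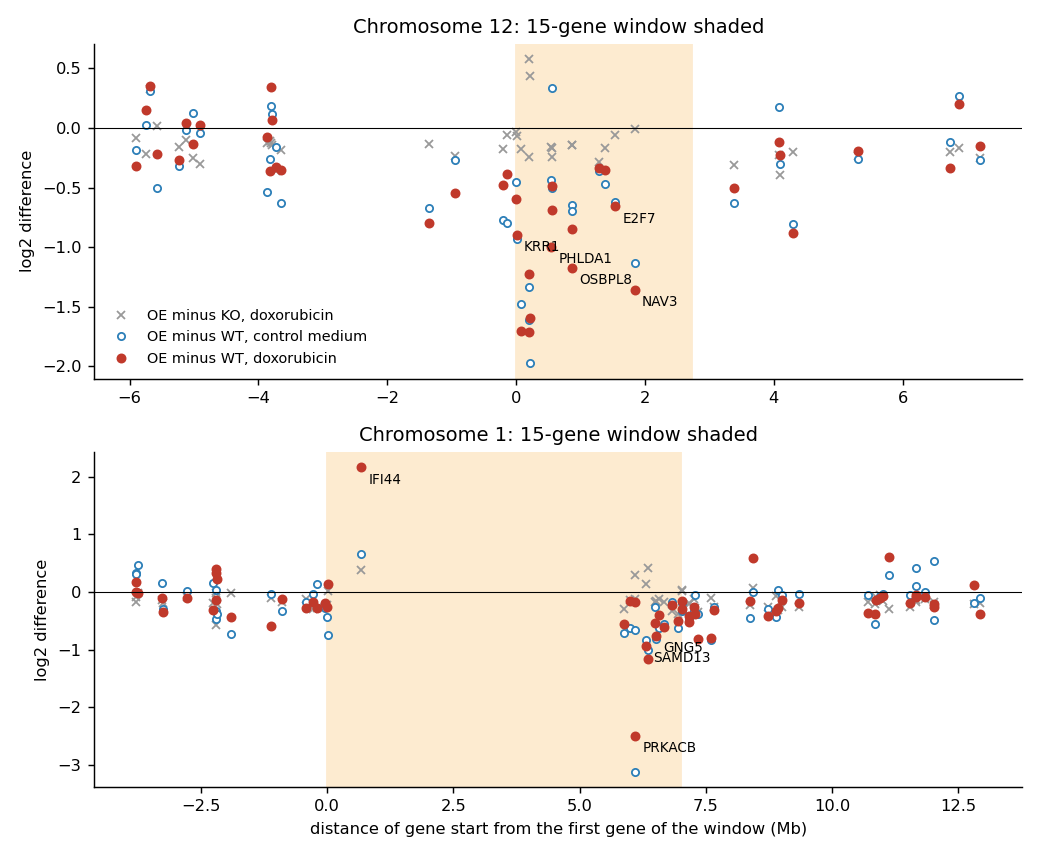
Log2 differences of single genes around the lowest (top, chromosome 12) and second lowest (bottom, chromosome 1) 15-gene windows, against the distance of each gene's start from the first gene of the shaded window in Mb. Red points (OE minus WT, doxorubicin) and open blue points (OE minus WT, control medium) fall below 0 in the chromosome 12 window except 1 blue point, while the crosses (OE minus KO, doxorubicin) of that window have a median of -0.15.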

How the data were processed

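Total RNA was extracted with Trizol and made into stranded libraries, per the labels' protocols. Tools named in the submitters' processing notes are featureCounts, HISAT2 (2.0.4), SAMtools (1.7), edgeR (3.12.1) and R (3.3.3), with the hg38 build. The authors deposited log2 TPM values, which were returned to TPM and refitted as log2(TPM + 1); this understates changes of low genes. Genes with at least 1 TPM in at least 2 libraries were tested with limma 3.58.1 (R 4.3.3) over all 12 libraries in 6 groups, and p-values were adjusted over all 15256 genes. Genes on X, Y and M stayed in the fit and were not counted. GENCODE v29 gave positions. Reads were recovered from the TPM steps with GENCODE exon lengths for 15182 genes (within 0.05 reads) and searched lengths for 1487. Counting intervals cover counting error only, and p-values the spread between replicates. Genes sharing reads with near-identical copies were not resolved. Named were up to 15 called genes each way with at least 5 TPM by size, then lower-level called genes, then up to 10 not called by p, up to 4 members of each list, and a fixed set around p53, PARP1 and apoptosis. Members and lists were chosen with earlier results of these data known. The fit was also run on simulated data with the same fixed spread in every gene and no deviation shared between libraries. Those data thus do not cover the shared deviations of KO dox and OE dox. Alternatives changed the added constant, filter, scaling, block, samples fitted and test. Some genes of the lists and of the fixed set are not reported here.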

Additional observations from a re-analysis of the deposited data

Results flagged for a closer look

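The difference between OE and WT in PDE4B depended on the medium by a test of the interaction, which was -3.1 on the log2(TPM + 1) scale (SE 0.29, limma adjusted p = 0.00131). The difference was -4.48 with doxorubicin and -1.38 in control medium, and both OE libraries were below both WT libraries in each medium. Leaving out any 1 of the 8 libraries gave interactions between -3.24 and -2.96, with adjusted p-values from 0.0053 to 0.0219. With 0.1 in place of 1 added to TPM it was -3.31 with an adjusted p of 0.88, and voom on recovered reads gave -2.19 with an adjusted p of 1, so the call rests on the scale.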

How the results depend on the processing

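The 42 genes called between OE dox and WT dox became 16 with a minimum mean of 5 TPM, 76 with median-ratio scaling, 64 without small RNA genes, 117 in a fit of only the groups compared, 97 with voom on recovered reads and 10 to 19 without 1 library each. Of the 42, 39 were still called with median-ratio scaling, 41 with only the groups compared, 38 with voom and 16 of the 21 still tested at 5 TPM. The 13 genes called in control medium became 7, 37, 8 and 21 with a minimum mean of 5 TPM, median-ratio scaling, only the groups compared and voom, and 3 to 8 without 1 library each. The single interaction call became 0 with 0.1 added to TPM (149 genes at an unadjusted p under 0.05), 0 at 5 TPM, which leaves PDE4B untested (85 genes), 0 with voom (305 genes) and 6 with only the groups compared. The 1 call between OE dox and KO dox was 1 in each alternative. Except where stated, the cause of these moves was not tested. Of the 74 genes named by the rule, 7 changed direction under at least 1 alternative, and 0 of these were called. Without 1 library each, the differences ran from -0.46 to 0.47 for CDKN1A, -0.71 to 0.12 for MDM2, -0.81 to 0.75 for TP53I3, -0.55 to 0.16 for BAX, -0.83 to 0.64 for BBC3, -0.75 to 0.46 for FAS and -0.66 to 0.02 for EPCAM. TP53I3 was at 0.12 with median-ratio scaling, 0.03 without small RNA genes and 0.10 with voom, and BBC3 at 0.03 with median-ratio scaling and 0.05 with voom. The labels do not say what a shared letter marks. Deviations of same-lettered libraries correlated at 0.158 between WT dox and OE dox, -0.33 between WT control and OE control, 0.508 between KO control and OE control and 0.811 between KO dox and OE dox. A replicate block on the letters gave 63 calls with doxorubicin, 18 in control medium, 1 interaction and 1 against KO dox. With 2 libraries per group, a fit without 1 assumes that the lone library varies like the other groups. A count of 0 allows up to 3 reads, so low genes are limited by depth.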

Other observations

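AREG and EREG are ligands of the EGF receptor, and neither was called. AREG was at 657 and 441 TPM in WT dox and at 292 and 86.9 TPM in OE dox (difference -1.75, SE 0.60, limma adjusted p = 0.652). EREG was at 345 and 205 TPM in WT dox and at 139 and 38.4 TPM in OE dox (difference -1.84, SE 0.56, limma adjusted p = 0.459). ERRFI1, a feedback inhibitor of the receptor, was at 316 and 233 TPM and at 109 and 177 TPM (difference -0.96, limma adjusted p = 0.323). Of the 33 tested genes of this list, 0 were called, beside 0.286% of all genes. The list median was -0.14, against -0.12 for all genes.

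SLPI, a secreted protease inhibitor, was at 7.93 and 7.57 TPM in WT dox and at 17.2 and 15.9 TPM in OE dox (difference 1.00, SE 0.23, limma adjusted p = 0.147). It was called in control medium, at 2.76 and 3.91 TPM in WT control and at 14.3 and 13.6 TPM in OE control (difference 1.80, limma adjusted p = 0.00500). LCN2, an iron-sequestering secreted protein, was at 2.41 and 7.61 TPM in WT dox and at 13.5 and 20.5 TPM in OE dox (limma adjusted p = 0.122). SLPI belongs to a list of squamous barrier genes and LCN2 to the inflammatory list. Of the barrier list, 28 were tested, 0 were called (beside 0.286% of all genes) and 16 were above 0 (57.1%, beside 32.0% of all genes). The list median was 0.08, and -0.02 with 14 above 0 without OE dox a.

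Some genes with large differences were not called. IFI6, an interferon-induced protein, averaged 107.0 TPM in WT dox and 409.0 TPM in OE dox (difference 2.03, limma adjusted p = 0.0886). ADAM19, a membrane protease, averaged 14.6 TPM in WT dox and 3.05 TPM in OE dox (difference -1.89, limma adjusted p = 0.0513), and NR2F1, a nuclear receptor, averaged 5.18 and 0.737 TPM (difference -1.84, limma adjusted p = 0.0886). These 3 were chosen after their values were seen.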
